A study of Mus musculus with 16 samples.

Results

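The NR4A orphan nuclear receptors are encoded in the mouse by *Nr4a1* (Entrez 15370), *Nr4a2* (Entrez 18227) and *Nr4a3* (Entrez 18124). These 3 genes were taken by symbol from the 24454 genes of a count table of *gastrocnemius* muscle, and all 3 passed edgeR's filter on low counts, together with 15484 other genes. RNA was sequenced from 16 mice at 3 months of age, with a library for each mouse. HSALR mice (genotype label HSA transgene) carry a human skeletal actin transgene with expanded CTG repeats that is expressed only in skeletal muscle, and are a model of myotonic dystrophy type 1. They were homozygous mice of a single line, LR20b, and the control mice were of the background strain FVB/N, without the transgene and not described as littermates. HSALR mice were labelled CTRL (n = 5) or AICAR (n = 5) for treatment, and FVB/N mice CTRL (n = 3) or AICAR (n = 3). AICAR, a precursor of an AMP mimetic that activates AMP-activated protein kinase (AMPK), was given at 500 mg/kg for 7 days. What the CTRL mice received is not given in the sources used here, nor is the time between the last dose and dissection.

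NR4A receptors bind DNA and act on transcription without a known classical ligand in their pocket, so that their activity follows largely from how much of them is made. They bind as monomers to a DNA element called the NBRE, as dimers among themselves, and NR4A1 and NR4A2 also bind together with retinoid X receptors. Their genes are immediate early genes. In skeletal muscle they are known to be switched on quickly by β-adrenergic signalling through cAMP and CREB, by calcium through calcineurin and MEF2, and by exercise, and they have been tied to genes of glucose, glycogen and fat metabolism.

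On the GRCm38 assembly the RefSeq annotation places *Nr4a1* at chr15:101253902-101274795 on the plus strand, *Nr4a2* at chr2:57106830-57124003 on the minus strand and *Nr4a3* at chr4:48045078-48086447 on the plus strand. *Nr4a2* overlaps the uncharacterized gene LOC105244150, which has no row of its own in the count table, and reads of the overlap cannot be told apart because the sources used here do not state whether strand was used in counting. *Nr4a1* and *Nr4a3* overlap no other annotated gene. The 250 bases before the start site are shown for each gene because CREB binds cAMP response elements (CREs) and the 3 genes share a number of CRE cores there, mostly at different positions. Capitals mark the 5-letter CRE core, TGACG or its reverse complement CGTCA, on either strand. The sequences are from RefSeq, build GRCm38.p6, read 5′ to 3′ along the strand of the gene, from chr15:101266596-101266845, chr2:57124004-57124253 and chr4:48045055-48045304.
Nr4a1: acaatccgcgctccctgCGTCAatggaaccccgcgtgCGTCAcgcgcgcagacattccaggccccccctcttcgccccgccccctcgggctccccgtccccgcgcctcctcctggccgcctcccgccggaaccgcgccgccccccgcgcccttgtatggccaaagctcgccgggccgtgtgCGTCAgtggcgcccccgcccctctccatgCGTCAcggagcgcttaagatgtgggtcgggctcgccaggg
Nr4a2: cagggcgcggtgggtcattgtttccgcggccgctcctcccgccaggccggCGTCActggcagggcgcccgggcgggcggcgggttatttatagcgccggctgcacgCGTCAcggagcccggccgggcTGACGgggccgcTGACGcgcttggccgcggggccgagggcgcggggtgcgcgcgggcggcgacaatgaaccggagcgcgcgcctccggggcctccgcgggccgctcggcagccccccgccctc
Nr4a3: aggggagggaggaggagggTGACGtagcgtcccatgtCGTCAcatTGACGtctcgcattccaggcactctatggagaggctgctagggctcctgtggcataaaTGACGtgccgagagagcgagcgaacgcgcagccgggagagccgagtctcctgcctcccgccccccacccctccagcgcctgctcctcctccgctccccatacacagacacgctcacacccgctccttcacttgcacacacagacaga
Each sequence held 4 CRE cores. Of 32851 RefSeq promoter sequences of this length, 17.8% held at least 1 core and 0.137% held at least 4. The cores began 233, 213, 69 and 40 bases before the start site in *Nr4a1*, 200, 144, 123 and 111 bases before it in *Nr4a2*, and 231, 213, 205 and 147 bases before it in *Nr4a3*. In *Nr4a1* and *Nr4a3* the core farthest but one therefore began at the same distance from the start site, 213 bases. Neither the full palindromic CRE (TGACGTCA, 1.55% of promoter sequences) nor the NBRE (AAAGGTCA or its reverse complement, 1.34%) occurred in these stretches. GC content was 74.4%, 80.0% and 63.6%. Longer annotated transcripts of *Nr4a1* and *Nr4a3* start 12944 and 227 bases farther upstream, so these stretches belong to the annotated start of the table's transcript only.

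The libraries held 64890014 to 81987726 counts in all. Normalized CPM is used for levels, that is the abundance of a transcript relative to its library after TMM scaling in edgeR, and RPKM, the same value per kilobase of the deposited gene length, is used where different genes are compared. A gene was called different when its Benjamini-Hochberg adjusted p in edgeR's quasi-likelihood test was under 0.05 over all 15487 genes. The 8 defining markers of skeletal muscle fibres were present at high levels in every library, with a summed level between 132053 and 191663 normalized CPM. The FVB/N CTRL mouse S446 and the FVB/N AICAR mouse S447 had the highest level of all 3 Nr4a genes in their groups, and the HSALR AICAR mouse S460 had the highest *Nr4a1* in its group. Epidermal RNA also differed between the groups, because the keratin *Krt14* was above 1 normalized CPM in 4 of 5 HSALR CTRL mice, 1 of 3 FVB/N CTRL mice, 1 of 3 FVB/N AICAR mice and 0 of 5 HSALR AICAR mice.

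Per unit of length, *Nr4a1* was the most abundant member in FVB/N CTRL muscle. It had 97.6 ± 51.0 RPKM (SD, n = 3), above 96.7% of the genes tested, against 4.30 ± 5.30 RPKM for *Nr4a3* and 2.90 ± 3.69 RPKM for *Nr4a2*. S446 carried both of the latter means, at 10.4 and 7.16 RPKM, as the other mice had 1.28 and 1.19 RPKM of *Nr4a3* and 0.782 and 0.755 RPKM of *Nr4a2*. *Nr4a3* reached 82.4 ± 20.8 RPKM in FVB/N AICAR mice and then stood above 95.9% of the genes tested. In HSALR CTRL mice the levels were 61.0 ± 24.0 RPKM for *Nr4a1*, 3.20 ± 1.25 RPKM for *Nr4a3* and 0.533 ± 0.308 RPKM for *Nr4a2* (SD, n = 5). In HSALR AICAR mice they were 80.1 ± 67.0, 18.7 ± 7.23 and 0.262 ± 0.0640 RPKM. The median gene tested had between 3.56 and 3.63 RPKM in the 4 groups. In whole muscle, fewer cells of a type that makes a transcript and less of it per cell cannot be told apart.

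**Figure D1:**
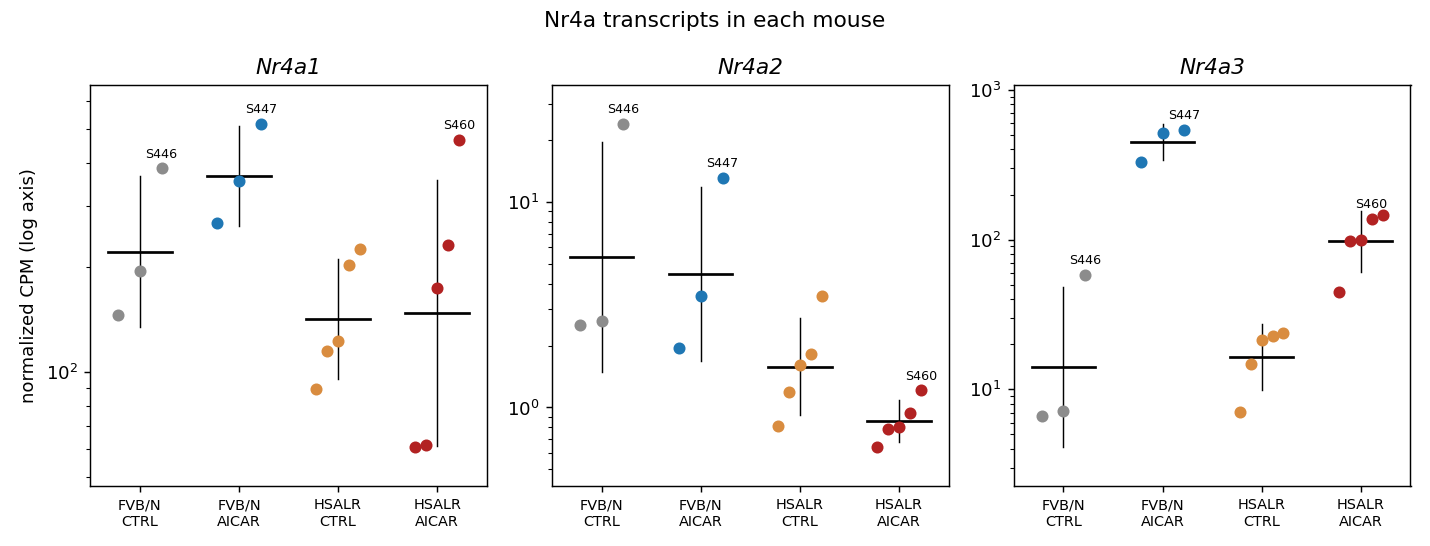
Normalized CPM of *Nr4a1*, *Nr4a2* and *Nr4a3* on a log axis, with a point for each mouse of the 4 groups (FVB/N CTRL n = 3, FVB/N AICAR n = 3, HSALR CTRL n = 5, HSALR AICAR n = 5). Horizontal bars are means and vertical lines SDs of the log2 values, and mice S446, S447 and S460 are named. *Nr4a3* of every AICAR mouse lies above every CTRL mouse of its genotype, while the AICAR and CTRL points of *Nr4a1* and *Nr4a2* overlap in both genotypes.

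*Nr4a3*, also called NOR1, was the member that differed between AICAR and CTRL mice. In FVB/N CTRL mice its level was 58.4 normalized CPM in S446, 7.20 in S445 and 6.69 in S450, and in FVB/N AICAR mice it was 543 in S447, 513 in S449 and 328 in S448. S446 was far above the other CTRL mice, yet all AICAR mice were above it. *Nr4a3* was 19.1-fold higher with AICAR (log2 fold change 4.26, SE 0.75, 95% interval 2.65 to 5.86, adjusted p = 0.00215), the seventh highest log2 fold change among the 15487 genes. Without S446 the log2 fold change was 6.05. In this comparison 13.2% of all genes were called, 8.4% were called higher, and the groups did not overlap in 33.1% of genes. An exact permutation test of 3 against 3 mice gave p = 0.1, the smallest it can give. 

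In HSALR CTRL mice *Nr4a3* was at 23.7 (S458), 22.7 (S452), 21.3 (S453), 14.7 (S451) and 7.05 (S459) normalized CPM. With AICAR it was at 147 (S454), 137 (S460), 99.4 (S455), 97.1 (S463) and 44.4 (S462). The groups did not overlap, and the lowest AICAR mouse was 1.87 times the highest CTRL mouse. The fitted difference was 5.86-fold (log2 2.55, SE 0.55, 95% interval 1.39 to 3.71, adjusted p = 0.00318), rank 35 of 15487 from the highest, and the two-sided exact permutation test gave p = 0.00794, the smallest it can give. Here 26.6% of all genes were called, 13.7% were called higher, and the groups did not overlap in 17.7% of genes. Leaving out the mice with *Krt14* above 1 normalized CPM kept 1 HSALR CTRL mouse, S451. The log2 fold change was then 2.83 and was not called, with a spread taken from the other groups.

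The level of *Nr4a3* after AICAR also differed between the genotypes. The highest HSALR AICAR mouse, at 147 normalized CPM, was below the lowest FVB/N AICAR mouse, at 328. *Nr4a3* was 4.39-fold lower in HSALR mice (log2 fold change -2.14, SE 0.58, adjusted p = 0.0164, two-sided exact permutation p = 0.0179, the smallest possible). In this comparison 21.8% of all genes were called, 9.64% were called lower, and the groups did not overlap in 26.5% of genes. Without S447 the log2 fold change was -2.0 with an adjusted p of 0.0536. Among CTRL mice the levels of 6.69 to 58.4 in FVB/N and 7.05 to 23.7 in HSALR mice overlapped, and the fitted log2 fold change of -0.43 (SE 0.60, adjusted p = 0.643) became 1.37 (adjusted p = 0.0533) without S446.

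Whether AICAR acted on *Nr4a3* to a different extent in the 2 genotypes was tested as the difference of the AICAR effects, for which 0.691% of all genes were called. The log2 difference, HSALR minus FVB/N, was -1.71 (SE 0.85, 95% interval -3.51 to 0.10), with an unadjusted p of 0.0624 and an adjusted p of 0.365 in edgeR's quasi-likelihood test, and the interval held 0. It rested on S446, as the difference without this mouse was -3.50 with an adjusted p of 0.0278. Ordered by mean level, *Nr4a3* was highest in FVB/N AICAR mice, followed by HSALR AICAR, FVB/N CTRL and HSALR CTRL mice. The last 2 groups did not differ beyond their spread. HSALR AICAR mice, at 44.4 to 147 normalized CPM, overlapped FVB/N CTRL mice through S446 alone, and this pair of groups was not tested.

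**Figure D2:**
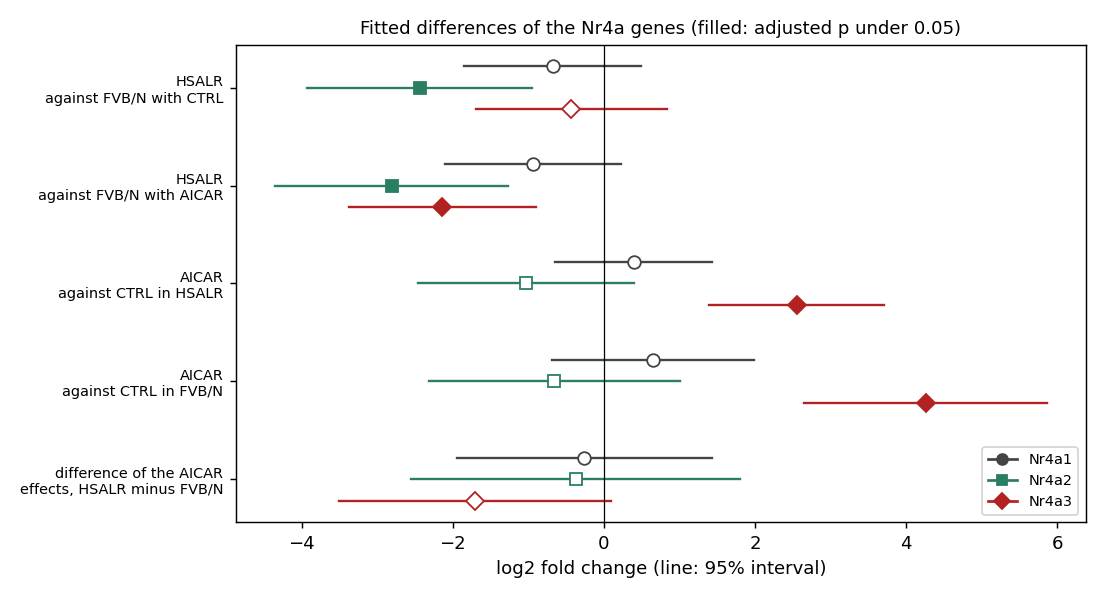
Fitted log2 fold changes of the 3 Nr4a genes for the 4 comparisons between groups and for the difference of the AICAR effects. Symbols are edgeR estimates, lines their 95% intervals, and filled symbols have an adjusted p under 0.05. *Nr4a3* is at 4.26 and 2.55 for AICAR in FVB/N and HSALR mice, and *Nr4a2* is at -2.44 and -2.81 for HSALR against FVB/N with CTRL and AICAR.

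*Nr4a2*, also called NURR1 and best known from dopamine neurons, had the lowest level of the 3 genes, with 42 to 1878 reads per mouse. In FVB/N CTRL mice it was at 23.9 (S446), 2.62 (S445) and 2.53 (S450) normalized CPM. In HSALR CTRL mice it was at 3.50 (S458), 1.81 (S459), 1.61 (S451), 1.19 (S453) and 0.816 (S452). Only S458 reached the range of the FVB/N mice, and S446 was far above all others. *Nr4a2* was 5.41-fold lower in HSALR mice (log2 fold change -2.44, SE 0.70, 95% interval -3.92 to -0.95, adjusted p = 0.0175, two-sided exact permutation p = 0.0714), the eighth lowest log2 fold change of all genes. Called genes were 26.9% of all genes here, and genes called lower 11.5%. The call rested on S446, without which the log2 fold change was -0.52 (adjusted p = 0.580).

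With AICAR, *Nr4a2* was at 13.1 (S447), 3.47 (S448) and 1.95 (S449) normalized CPM in FVB/N mice and between 0.642 (S463) and 1.21 (S460) in the 5 HSALR mice, with a median of 0.807. All HSALR mice were below all FVB/N mice, in a comparison where 26.5% of all genes did not overlap, 21.8% were called and 9.64% were called lower. The fitted difference was 7.01-fold (log2 fold change -2.81, SE 0.73, 95% interval -4.36 to -1.26, adjusted p = 0.0126, two-sided exact permutation p = 0.0179). It was not called by limma voom (-2.36, adjusted p = 0.0819), nor by edgeR without S447 (-1.63, adjusted p = 0.146). With S446 and S447 both left out, after their values had been seen, *Nr4a2* was no longer called in CTRL mice (log2 fold change -0.52, adjusted p = 0.411), while with AICAR it was (-1.63, adjusted p = 0.0193).

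AICAR was not followed by a called change of *Nr4a2* in either genotype. In HSALR mice 4 of the 5 AICAR values lay below the second lowest CTRL value of 1.19, and the groups overlapped. The log2 fold change was -1.03 (SE 0.67, adjusted p = 0.283), and the two-sided exact permutation test of this gene alone gave p = 0.0476. A fit of the 2 HSALR groups alone gave the same log2 fold change with an adjusted p of 0.0457. In FVB/N mice the log2 fold change of -0.66 (SE 0.78, adjusted p = 0.628) became 1.26 without S446. The difference of the AICAR effects was -0.37 (SE 1.02, adjusted p = 0.900), and became -2.29 without S446 and 0.81 without S447.

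*Nr4a1*, also called NUR77, varied widely between mice of the same group. It was at 385 (S446), 195 (S445) and 145 (S450) normalized CPM in FVB/N CTRL mice and at 517 (S447), 355 (S449) and 268 (S448) in FVB/N AICAR mice. HSALR CTRL mice had 225 (S459), 203 (S458), 122 (S451), 115 (S453) and 89.2 (S452). HSALR AICAR mice had 464 (S460), 231 (S454), 174 (S455), 61.4 (S462) and 60.8 (S463). The last group spanned a 7.63-fold range, against 1.93-fold to 2.64-fold in the other groups, and its values lay both above and below those of all HSALR CTRL mice.

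No comparison called *Nr4a1*. The difference of the AICAR effects was -0.26 (SE 0.79, adjusted p = 0.910), and became -0.77 without S446, 0.027 without S447 and -0.85 without S460. The log2 fold change with AICAR was 0.65 (SE 0.63, adjusted p = 0.538) in FVB/N mice, between 0.37 without S447 and 1.159 without S446, and 0.39 (SE 0.49, adjusted p = 0.596) in HSALR mice, where it became -0.20 without S460. HSALR differed from FVB/N mice by -0.68 (SE 0.55, adjusted p = 0.400) with CTRL, which became -0.17 without S446, and by -0.94 (SE 0.55, adjusted p = 0.237) with AICAR. Without S460 the latter was -1.53 with an adjusted p of 0.0325, and without S447 it was -0.65. With AICAR the 95% intervals for *Nr4a1*, -0.68 to 1.99 in FVB/N and -0.64 to 1.43 in HSALR mice, did not reach the estimates for *Nr4a3* of 4.26 and 2.55. The 95% intervals for *Nr4a3* were 2.65 to 5.86 and 1.39 to 3.71, so those of the 2 genes overlapped in HSALR mice.

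Because *Nr4a3* and *Nr4a1* were measured in the same library, their counts were also compared within each mouse, which does not depend on library scaling. *Nr4a3* had 0.0313 to 0.254 counts for each count of *Nr4a1* in the 8 CTRL mice, and 0.296 to 1.60 in the 8 AICAR mice. The lowest AICAR mouse was S460, which had the highest *Nr4a1* of its group. The mean log2 ratio was -3.97 ± 1.10 (SD, n = 3) in FVB/N CTRL mice and 0.30 ± 0.23 in FVB/N AICAR mice, and -3.11 ± 1.15 (SD, n = 5) in HSALR CTRL mice and -0.60 ± 0.87 in HSALR AICAR mice. The difference with AICAR was 2.51 in HSALR mice (two-sided exact permutation p = 0.00794, adjusted p = 0.0317 over 4 comparisons). With 1 mouse left out it stayed between 2.04 and 2.80. The adjusted exact permutation p was then between 0.0317 and 0.0635, and was under 0.05 in 4 of the 10 cases. The difference was 4.27 in FVB/N mice, or 4.90 without S446 (exact permutation p = 0.1, the smallest possible, adjusted p = 0.190). Between genotypes the ratio differed by 0.86 with CTRL (exact permutation p = 0.357, adjusted p = 0.357) and by -0.90 with AICAR (exact permutation p = 0.143, adjusted p = 0.190).

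**Figure D3:**
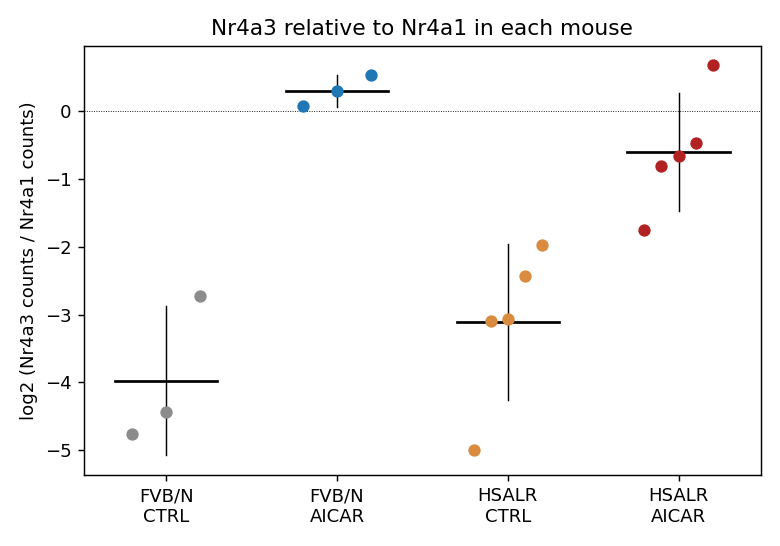
Log2 of the *Nr4a3* count divided by the *Nr4a1* count, with a point for each mouse of the 4 groups. Horizontal bars are means and vertical lines SDs, and the dotted line marks equal counts. All 8 AICAR mice (-1.76 to 0.68) lie above all 8 CTRL mice (-5.00 to -1.97).

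Over the 16 mice, log2 levels of *Nr4a1* and *Nr4a2* had a Pearson correlation of 0.62 and a Spearman correlation of 0.64, as a description of libraries that share groups. The corresponding values were 0.47 and 0.55 for *Nr4a1* with *Nr4a3*, and 0.19 and 0.02 for *Nr4a2* with *Nr4a3*. After the mean of each group was subtracted, the 3 Pearson correlations lay between 0.47 and 0.63. S446 was the highest mouse of its group for all 3 genes, and so was S447. Without these mice and S460, a choice made after seeing the data, the Pearson correlations over 13 mice were 0.62, 0.29 and -0.15.

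Genes whose level followed each member most closely over the 16 mice were sought among 12487 genes with a mean of at least 1 normalized CPM. For *Nr4a1* these were *Mnt*, a partner of MAX that represses transcription (Pearson r = 0.92), *Junb*, a subunit of AP-1 (0.88), the stress gene *Gadd45b* (0.87), the clock repressor *Bhlhe40* (0.86) and the scaffold gene *Grasp* (0.86). *Junb* was at 120 normalized CPM in S447 and 112 in S460 and between 10.1 and 43.7 in the other 14 mice. For *Nr4a2* they were the smooth muscle gene *Cnn1* (0.89), *Hdc*, which encodes the enzyme that makes histamine (0.88), the glypican gene *Gpc3* (0.86), the smooth muscle gene *Tagln* (0.86) and the kinase gene *Prkd2* (0.85). *Cnn1* was highest in S446 at 4.44 normalized CPM and second highest in S447 at 3.54. Without S446, S447 and S460 the correlations over 13 mice were 0.75 to 0.94 for the genes nearest *Nr4a1* and 0.60 to 0.88 for those nearest *Nr4a2*, of which *Cnn1* had the lowest.

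For *Nr4a3* the nearest genes were the cytoskeletal gene *Septin9* (Pearson r = 0.96), *Abi3* (0.94), the haem-regulated repressor gene *Bach1* (0.93), the receptor gene *Gpr157* (0.93) and *Tmem189* (0.93). Their range was smaller than that of *Nr4a3*. *Bach1*, for example, was at 114 to 149.6 normalized CPM in FVB/N AICAR mice, 64.0 to 109 in HSALR AICAR mice and 38.9 to 52.1 in the 8 CTRL mice. As these genes were picked for following *Nr4a3* in the same mice, their differences between the groups are no separate result. After group means were subtracted, the correlations with *Nr4a3* fell to between 0.46 and 0.81, whereas those with *Nr4a1* stayed between 0.80 and 0.91. Without S446, S447 and S460 the correlations with *Nr4a3* were 0.94 to 0.97.

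The smooth muscle genes beside *Nr4a2* were set against the markers of other cell types. The summed level of 4 smooth muscle and pericyte markers was 418 to 448.6 normalized CPM in FVB/N CTRL mice, 308 to 352 in HSALR CTRL mice, 347 to 418 in FVB/N AICAR mice and 284 to 330.0 in HSALR AICAR mice. It was thus lower in all HSALR mice than in all FVB/N mice of the same treatment, as *Nr4a2* was with AICAR. With AICAR 26.5% of all genes did not overlap between the genotypes, and the share with CTRL is not given here. Of the 4 markers 2, *Rgs5* and *Myh11*, were called lower with either treatment. *Rgs5* made up most of the sum. *Cspg4* lay the other way, at a log2 fold change of 0.28 with CTRL and 0.27 with AICAR, and was not called (adjusted p = 0.153 and 0.178). Of 6 endothelial markers 6 were called lower in HSALR mice with CTRL and 3 with AICAR, with summed levels of 311 to 351 against 212 to 259 and of 316 to 336 against 250.4 to 268 normalized CPM. Of all genes 11.5% were called lower with CTRL and 9.64% with AICAR. The part of these cell types in the level of *Nr4a2* was not tested.

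Markers of leukocytes, fibroblasts, adipocytes and Schwann cells overlapped between the genotypes with either treatment, apart from higher summed leukocyte markers in HSALR AICAR mice (175 to 282 normalized CPM) than in FVB/N AICAR mice (141 to 169). Of their 22 markers, only 2 leukocyte markers were called between genotypes, higher with CTRL, where 26.9% of all genes were called. Of 3 satellite cell markers 1 was called higher in HSALR mice with CTRL and 2 with AICAR, where 26.9% and 21.8% of all genes were called. Their summed levels were at most 4.80 normalized CPM. With AICAR in HSALR mice, 8 of 8 epidermal markers were called lower, with summed levels of 0.612 to 187 in CTRL mice and 0.242 to 0.371 in AICAR mice. In the same comparison 3 of 5 fibroblast markers were called lower and 2 of 6 endothelial markers higher, where 26.6% of all genes were called. There 1 of 4 smooth muscle and pericyte, 1 of 3 satellite cell and 1 of 8 leukocyte markers were called lower too, and 0 higher. Between genotypes with AICAR, 5 of 8 epidermal markers were called lower in HSALR mice, against 9.64% of all genes. *Nr4a2* and *Nr4a3* were lower there too. Of the epidermal markers 8 had an unadjusted p under 0.05 in edgeR's test (median log2 fold change -9.12). This rested on S448, whose summed level was 104 normalized CPM, while the other FVB/N AICAR mice, at 0.243 and 0.341, lay within the range of the HSALR AICAR mice. Without the mice with *Krt14* above 1 normalized CPM, the differences with AICAR were -3.09 for *Nr4a2* (adjusted p = 0.0248) and -2.33 for *Nr4a3* (adjusted p = 0.0264). In FVB/N mice 0 of 8 epidermal markers were called with AICAR by edgeR and 0 had an unadjusted p under 0.05. Without the *Krt14* mice the rise of *Nr4a3* with AICAR was 4.00 in FVB/N mice (adjusted p = 0.0311). In HSALR mice, where 1 CTRL mouse was left, it was 2.83 and not called.

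Among 19 genes of the adrenergic, cAMP and CREB pathway upstream of the Nr4a genes, 1 was called higher and 2 lower with AICAR in FVB/N mice, and 2 higher and 3 lower in HSALR mice. These were 15.8% and 26.3% of the list, near the 13.2% and 26.6% called over all genes. The medians of the list were -0.05 and -0.04 on the log2 scale, against -0.01 and -0.02 over all genes. *Crem*, which encodes CREB-related activators and repressors, was called higher with AICAR in FVB/N mice (log2 fold change 0.68, adjusted p = 0.00368) and lower in HSALR mice (-0.39, adjusted p = 0.00997), and its AICAR effect was lower in HSALR mice (difference -1.07, SE 0.16, adjusted p = 0.0141). *Pde4b*, an enzyme that degrades cAMP, was lower with AICAR in FVB/N (-1.36, adjusted p = 0.0159) and HSALR mice (-0.73, adjusted p = 0.0486). The CREB coactivator gene *Crtc2* was higher with AICAR in HSALR mice (0.35, adjusted p = 0.00102). *Crtc3*, a coactivator of the same family, was lower with AICAR in FVB/N (-0.42, adjusted p = 0.00271) and HSALR mice (-0.27, adjusted p = 0.00366).

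Between genotypes the same list had 2 genes called higher and 4 lower with CTRL (median -0.12, all genes 0.01), and 0 higher and 3 lower with AICAR (median -0.07, all genes 0.00). These were 31.6% and 15.8% of the list, against 26.9% and 21.8% of all genes. *Crtc2* was lower in HSALR mice with CTRL (-0.44, adjusted p = 0.000357) and AICAR (-0.26, adjusted p = 0.0185). *Crem* was higher in HSALR mice with CTRL (0.42, adjusted p = 0.0151) and lower with AICAR (-0.65, adjusted p = 0.00105). *Gnas*, the stimulatory G protein subunit, was higher with CTRL (0.22, adjusted p = 0.00558), and the histone acetyltransferase gene *Ep300* lower (-0.40, adjusted p = 0.00424).

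Of 16 genes of the calcium, calcineurin and MEF2 pathway, 1 was called higher and 0 lower with AICAR in FVB/N mice (median -0.0006, all genes -0.01), and 4 higher and 2 lower in HSALR mice (median -0.07, all genes -0.02). These were 6.25% and 37.5% of the list, against 13.2% and 26.6% of all genes. *Nfatc1*, a calcineurin target, was the gene called in FVB/N mice (0.68, adjusted p = 0.00128) and rose in HSALR mice as well (0.26, adjusted p = 0.0319). In HSALR mice *Hdac4*, which restrains MEF2, and *Mef2a* also rose (0.73 and 0.38, adjusted p = 0.00249 and 0.0256), while *Rcan1*, an inhibitor of calcineurin that is itself made in response to it, and *Nfatc4* fell (-0.41 and -0.33, adjusted p = 0.0330 and 0.0360). Between genotypes 1 gene was higher and 1 lower with CTRL (median -0.05), namely *Rcan1* (0.77, adjusted p = 0.00197) and the calcineurin subunit gene *Ppp3cb* (-0.25, adjusted p = 0.0478, a direction that turned under scaling to *Tbp*). With AICAR 2 were higher and 3 lower in HSALR mice (median -0.12). The genes called between genotypes were 12.5% of the list with CTRL and 31.2% with AICAR, against 26.9% and 21.8% of all genes.

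Of the 3 retinoid X receptor genes, which encode the partners of NR4A1 and NR4A2, 2 were called lower in HSALR mice with CTRL and 1 with AICAR. Of all genes 11.5% and 9.64% were called lower in these comparisons. With CTRL these were *Rxra* and *Rxrg* (log2 fold change -0.45 and -0.56, adjusted p = 0.00172 and 0.000791), and with AICAR it was *Rxrg* (-0.86, adjusted p = 3.84e-05). *Rxrg* was at 58.2 to 63.7 normalized CPM in FVB/N CTRL mice and 36.5 to 49.4 in HSALR CTRL mice, and at 67.7 to 90.8 and 39.8 to 48.9 with AICAR, where the genotypes did not overlap for 26.5% of all genes. AICAR was followed by a rise of *Rxrg* in FVB/N mice (0.40, adjusted p = 0.0299) and of *Rxra* in HSALR mice (0.23, adjusted p = 0.0397). The medians of the list were -0.45 and -0.26 between genotypes with CTRL and AICAR, and 0.04 and 0.11 with AICAR in FVB/N and HSALR mice.

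Metabolic genes that earlier work in muscle tied to NR4A receptors were also examined. Of 17 genes, 4 were called higher and 0 lower in FVB/N mice (median 0.12, all genes -0.01), and 6 higher and 3 lower in HSALR mice (median 0.20, all genes -0.02). These were 23.5% and 52.9% of the list, against 13.2% and 26.6% of all genes. *Ppargc1a*, the coactivator PGC-1α, rose in FVB/N mice (log2 fold change 1.66, adjusted p = 0.00113) and HSALR mice (0.74, adjusted p = 0.0138). *Lpin1*, a phosphatidate phosphatase and coactivator, rose in both genotypes (1.17 and 1.41, adjusted p = 0.00344 and 5.23e-05). *Prkag3*, the AMPK γ3 subunit, fell in HSALR mice (-1.55, adjusted p = 3.61e-05), and so did the uncoupling protein gene *Ucp2* (-0.97, adjusted p = 0.000268).

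*Ppargc1a* was at 118 to 222 normalized CPM in FVB/N AICAR mice and 71.0 to 112 in HSALR AICAR mice, a non-overlapping difference like that of *Nr4a3* (log2 fold change -0.87, adjusted p = 0.0132). S447 had the highest *Nr4a3* and the lowest *Ppargc1a* of the FVB/N AICAR mice, whereas S454 was the highest HSALR AICAR mouse for both genes. *Prkag3* was also lower in HSALR AICAR than in FVB/N AICAR mice (-0.97, adjusted p = 0.00350) and the caveolin gene *Cav3* higher (0.33, adjusted p = 0.0114, and 0.56 with CTRL, adjusted p = 0.000205), so that 1 gene was called higher and 2 lower there (median -0.04). With CTRL 3 were higher and 1 lower in HSALR mice (median -0.05), among them *Ucp2* (1.45, adjusted p = 3.24e-05), the gluconeogenic gene *Fbp2* (1.27, adjusted p = 0.00332) and the fatty acid transporter gene *Cd36* (-0.42, adjusted p = 0.0456). The genes called between genotypes were 23.5% of the list with CTRL and 17.6% with AICAR, near the 26.9% and 21.8% of all genes.

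Of 20 other immediate early genes 1 was called higher and 5 lower with AICAR in FVB/N mice, with a median log2 fold change of -0.35 against -0.01 over all genes. In HSALR mice 0 were called higher and 5 lower, with a median of -0.38 against -0.02. The genes called were 30% and 25% of the list, against 13.2% and 26.6% of all genes, so the share in HSALR mice was near that of all genes. *Maff*, a small MAF protein gene, was the gene that rose (2.25, adjusted p = 0.00772). *Maff* was at 45.7 normalized CPM in S447, 20.3 in S449 and 14.4 in S448, against 3.33 to 7.16 in FVB/N CTRL mice. *Ccn1*, a matrix protein gene, fell in FVB/N (-2.03, adjusted p = 9.97e-05) and HSALR mice (-1.15, adjusted p = 0.000298), and *Egr3* fell in FVB/N (-1.33, adjusted p = 0.0499) and HSALR mice (-1.46, adjusted p = 0.00397).

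*Atf3*, a stress-induced member of the ATF/CREB family, had 102 to 255 normalized CPM in HSALR CTRL mice and 7.63 to 22.3 in FVB/N CTRL mice (log2 fold change 3.57, adjusted p = 4.6e-05). It fell with AICAR in HSALR mice (-1.54, adjusted p = 0.00381), and its AICAR effect differed between genotypes (-2.90, SE 0.56, adjusted p = 0.0290). Between genotypes with CTRL, 3 of the 20 genes were called higher and 2 lower (median 0.01, the same as over all genes), including *Ier5* (0.82, adjusted p = 0.00396), *Zfp36*, which degrades cytokine mRNAs (-0.89, adjusted p = 0.0147), and the Krüppel-like factor gene *Klf6* (-0.63, adjusted p = 0.00226). *Jun* was higher in HSALR mice with CTRL (0.67, adjusted p = 0.0245). With AICAR *Ccn1* and *Jun* were higher in HSALR mice (1.26 and 1.02, adjusted p = 0.000800 and 0.00291) and *Maff* lower (-1.57, adjusted p = 0.0134), with a median of 0.01. The genes called between genotypes were 25% of the list with CTRL and 15% with AICAR, against 26.9% and 21.8% of all genes.

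**Figure D4:**
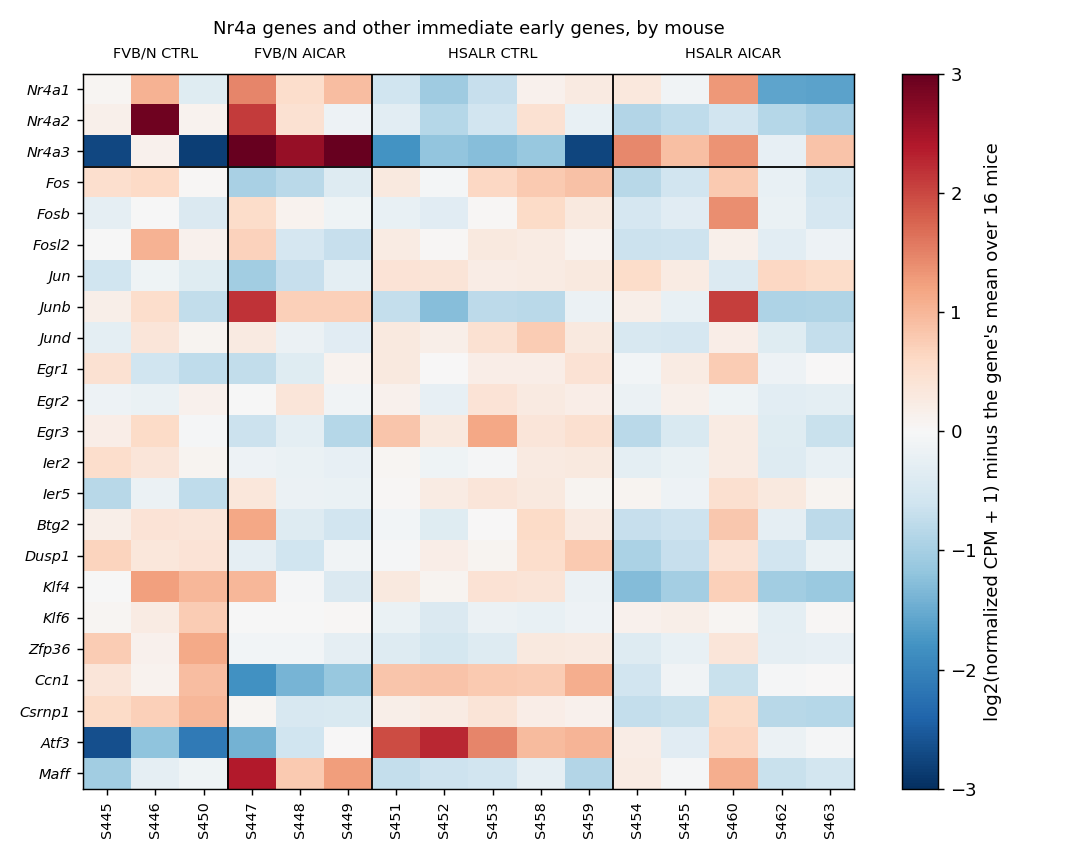
Log2(normalized CPM + 1) of the 3 Nr4a genes and 20 other immediate early genes in each of the 16 mice, as the difference from the gene's mean over all mice, with colours capped at 3 in either direction. Vertical lines separate the 4 groups. *Nr4a3* is high in all 8 AICAR mice except S462, just below its mean, while *Junb* and *Maff* are highest in S447, and *Junb* next highest in S460.

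Other nuclear receptors were set beside the Nr4a genes because they share their fold and some share their partners. Of 45 such genes 34 passed the filter. With AICAR, 4 were called higher and 1 lower in FVB/N mice (median log2 fold change 0.08, all genes -0.01), and 8 higher and 5 lower in HSALR mice (median -0.01, all genes -0.02). These were 14.7% and 38.2% of the list, against 13.2% and 26.6% of all genes. *Nr4a3* had a larger log2 fold change than each of them in both genotypes. *Nr6a1* rose in FVB/N (0.73, adjusted p = 0.0459) and HSALR mice (0.60, adjusted p = 0.0194). *Ppard*, a receptor for fatty acids, rose in FVB/N (0.62, adjusted p = 0.0130) and HSALR mice (0.34, adjusted p = 0.0385), and *Rora*, which acts on clock genes, rose in HSALR mice (0.42, adjusted p = 0.0265). *Esrrg*, an oestrogen-related receptor of oxidative muscle, fell in FVB/N mice (-0.83, adjusted p = 0.0162), and the haem receptor gene *Nr1d1* (-1.05, adjusted p = 0.0106) and the retinoic acid receptor gene *Rara* (-0.78, adjusted p = 0.0327) fell in HSALR mice.

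**Figure D5:**
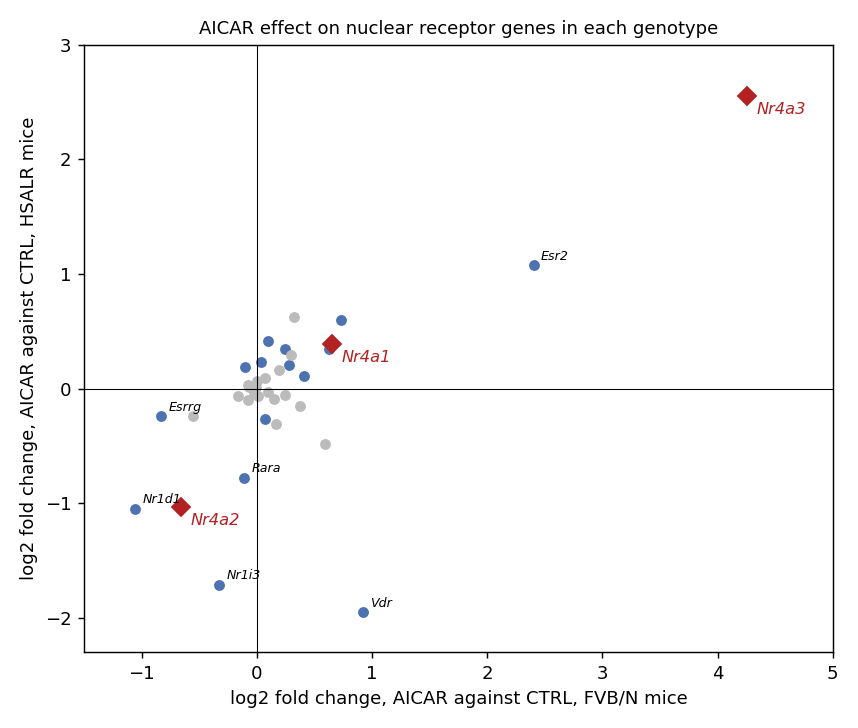
Log2 fold change with AICAR in FVB/N mice (horizontal axis) and HSALR mice (vertical axis) for 34 other nuclear receptor genes (circles, blue where called in either genotype) and the 3 Nr4a genes (red diamonds). *Nr4a3* lies at 4.26 and 2.55, apart from all others, and *Esr2*, *Nr1i3* and *Vdr* rest on few reads.

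Between genotypes, 3 of the 34 receptors were called higher and 6 lower in HSALR mice with CTRL (median -0.03, all genes 0.01), and 1 higher and 7 lower with AICAR (median -0.05, all genes 0.00). These were 26.5% and 23.5% of the list, near the 26.9% and 21.8% of all genes. With CTRL *Nr2f6* was higher (0.25, adjusted p = 0.00822) and *Esrrg* lower (-0.59, adjusted p = 0.0251), the latter by a difference that was 0.09 in the other direction without the mice with *Krt14* above 1 normalized CPM, which left 1 HSALR CTRL and 2 FVB/N CTRL mice. With AICAR *Ppara*, also a receptor for fatty acids, was lower (-1.16, adjusted p = 0.000723).

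Clock genes, which are bound by receptors of this class and vary over the day, were also examined. With AICAR, 25% and 37.5% of the 16 genes were called in FVB/N and HSALR mice, against 13.2% and 26.6% of all genes. Of the 16 genes 2 were higher and 2 lower in FVB/N mice (median 0.16, all genes -0.01), and 3 higher and 3 lower in HSALR mice (median 0.08, all genes -0.02). *Bhlhe41*, a repressor of the clock, rose in FVB/N and HSALR mice (2.12 and 1.198, adjusted p = 0.000963 and 0.00265). The activators *Arntl* (-1.55 and -1.13, adjusted p = 0.0154 and 0.0104) and *Npas2* (-2.28 and -1.45, adjusted p = 0.0236 and 0.0259) fell in FVB/N and HSALR mice. In HSALR mice the falls rested on S451, S452 and S453, with 20.2 to 31.8 normalized CPM of *Arntl*. The CTRL mice S458 and S459 had 11.6 and 8.93 of *Arntl*, within the 7.29 to 12.0 of HSALR AICAR mice. Their *Npas2*, at 0.621 and 0.586, also lay within the 0.297 to 0.882 of HSALR AICAR mice. *Cry1* rose in FVB/N (0.39, adjusted p = 0.0238) and HSALR mice (0.28, adjusted p = 0.0193), and *Tef* was called in HSALR mice (0.38, adjusted p = 0.00502) and not in FVB/N mice (0.32, adjusted p = 0.0684). Between genotypes 0 of the 16 were called with CTRL by edgeR, DESeq2 or limma voom, and 1 had an unadjusted p under 0.05 in edgeR (median -0.09), while 1 was called with AICAR (median -0.22), *Bhlhe41*, which was lower in HSALR mice (-0.98, adjusted p = 0.0201). The hour at which muscles were taken is not given in the sources used here.

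For the difference of the AICAR effects, HSALR minus FVB/N, edgeR called *Crem* in the adrenergic list and *Atf3* among the immediate early genes. It called 0 genes of the calcium, retinoid X receptor, metabolic, nuclear receptor and clock lists, where 2, 0, 4, 7 and 2 genes had an unadjusted p under 0.05. In these lists DESeq2 called 1 metabolic and 2 nuclear receptor genes, and limma voom called 0. The list medians lay between -0.08 and 0.06 on the log2 scale, against -0.01 over all genes and -0.26, -0.37 and -1.71 for *Nr4a1*, *Nr4a2* and *Nr4a3*.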

How the data were processed

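Single-end reads of stranded mRNA libraries were mapped by the authors to mm10 with STAR 2.5.2a, and QuasR counted reads starting in RefSeq exons. The authors deposited whole-number counts per gene without normalization and a gene length in bases (another column, used only for RPKM). Counts were fitted in R 4.3.3 with edgeR 4.0.16 (TMM, filterByExpr over 4 groups, glmQLFit and glmQLFTest, all 16 libraries, 1 mean per group) and adjusted by Benjamini-Hochberg over 15487 genes. Ratios and single values were compared by exact permutation tests. Alternatives were DESeq2 1.42.0, limma 3.58.1 voom, other scalings (RLE, library size, *Tbp*), other filters and fits, and leaving out each mouse. The test was checked on simulated counts with 200 changed genes.

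Members and lists were chosen with earlier results of these data known. Named were the Nr4a genes, the 2 higher and 2 lower called genes of each list and comparison with the largest log2 fold change and a mean count of at least 50, and the 5 genes most like each member by Pearson r of log2(normalized CPM + 1). *Esr2*, *Nr1i3* and *Vdr* fell outside this rule where named. Some genes of the lists are not reported here. Groups and the separateness of mice came from the labels, and p-values measure the spread between these mice. Counts of the Nr4a genes ran from 42 to 38190 per mouse, which sets their counting error. Gene symbols came from RefSeq, GRCm38.p6, which matched 24374 of 24454 identifiers.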

Additional observations from a re-analysis of the deposited data

Results flagged for a closer look

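In groups of 5 mice, the highest or lowest mouse was compared with the others by its gap to them (Dixon's test at 95%) for the Nr4a genes, their ratio and the genes most like them. Of 38 groups of values 7 held such a mouse. Chance marks about 1 in 20 independent groups, but these groups share mice and most genes were chosen for their likeness to an Nr4a gene, so no count by chance applies. None was a value of an Nr4a gene or of the ratio. The HSALR AICAR mouse S460 accounted for 5 of the 7. It had 112 normalized CPM of *Junb* against 13.3 to 29.4 in the other 4 mice, 429 of *Bhlhe40* against 91.0 to 151, 5.61 of *Grasp* against 2.94 to 3.21, 8.72 of *Prkd2* against 4.44 to 5.39, and 3.83 of *Abi3* against 3.24 to 3.36. It also had the highest *Nr4a1* of its group. The HSALR CTRL mouse S458, the highest of its group for *Nr4a2*, had 2.39 normalized CPM of *Hdc* against 0.501 to 0.843. The HSALR AICAR mouse S455 had 35.2 normalized CPM of *Tagln* against 28.1 to 30.0.

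AICAR effects differed between the genotypes, by edgeR's test of the difference itself, for 2 of the genes named with the Nr4a genes. HSALR minus FVB/N was -1.07 for *Crem* (adjusted p = 0.0141) and -2.90 for *Atf3* (adjusted p = 0.0290) on the log2 scale. Of all genes 0.691% were called in this test, and *Nr4a3* was not, at -1.71.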

How the results depend on the processing

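The rise of *Nr4a3* with AICAR in FVB/N mice kept its direction and its call under all 27 alternatives (log2 3.81 to 6.05, adjusted p at most 0.0364). That in HSALR mice kept both under 26 of 27. The exception, at a log2 fold change of 2.83, left out the mice with *Krt14* above 1 normalized CPM and kept 1 HSALR CTRL mouse. For either genotype, part of the 27 alternatives left out a mouse of the other genotype, which is not in the comparison. Other calls depended on single mice. Leaving out each mouse in turn gave ranges of -2.89 to -0.52 for *Nr4a2* and -0.88 to 1.37 for *Nr4a3* between genotypes with CTRL (the upper ends without S446). With AICAR they were -1.53 to -0.65 for *Nr4a1* (called only without S460), -3.23 to -1.63 for *Nr4a2* and -2.33 to -1.94 for *Nr4a3*, the last 2 not called without S447. For AICAR effects the ranges were -0.20 to 0.62 for *Nr4a1* in HSALR mice and -1.84 to 1.26 for *Nr4a2* in FVB/N mice. The log2 ratio of *Nr4a3* to *Nr4a1* in HSALR mice ranged from 2.04 to 2.80. Its adjusted exact permutation p was up to 0.0635, and under 0.05 in 4 of 10 cases. For differences of the AICAR effects the ranges were -0.85 to 0.03 for *Nr4a1*, -2.29 to 0.81 for *Nr4a2* and -3.50 to -1.26 for *Nr4a3*, the last called only without S446. Values above 0 arose for *Nr4a1* without S450 (0.0016) or S447 (0.027), and for *Nr4a2* without S445 (0.075), S450 (0.081), S447 (0.81) or S458 (0.028).

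With limma voom *Nr4a2* was at -1.79 with CTRL and -2.36 with AICAR between genotypes and not called (adjusted p = 0.103 and 0.0819), and *Nr4a3* with CTRL turned to 0.19. Without S446 and S447, chosen after seeing the data, *Nr4a2* was at -0.52 and *Nr4a3* at 1.37 with CTRL, and *Nr4a2* at 0.076 with AICAR in FVB/N mice and at -1.03 in HSALR mice, where it was called (adjusted p = 0.0371). A fit of only the groups compared also called this last change (-1.03). Neither of these fits left out an HSALR mouse, and the log2 fold change was the same as with all mice. Without the *Krt14* mice, also chosen after seeing the data, which left 1 HSALR CTRL mouse, *Nr4a2* with CTRL was at -3.05 and not called, the *Nr4a1* difference of AICAR effects was 0.11, and *Esrrg* turned to 0.090. Scaling to *Tbp* turned *Ppp3cb* to 0.029 and shifted the median of all genes by 0.27, -0.04, -0.11, 0.20 and -0.31 for HSALR against FVB/N with CTRL and AICAR, AICAR in HSALR and FVB/N mice, and their difference. Counts of called list genes moved by over 1.5 times in 151 of 938 recomputations. Calls of the genes named from the lists held in 1733 recomputations, were lost in 261 and turned direction in 2. The cause of these changes was not tested.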
